A study of Mus musculus with 4 samples.

Results

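Cytosolic ribosomal protein genes are the nuclear genes whose products, joined to ribosomal RNA, form the ribosomes of the cytosol. They were found by symbol, as the Rpl, Rps, Rplp and Rpsa genes with a plain number and at most a short letter, and the pattern found 77 of the 32285 genes in the count tables. Of these, 46 belong to the large subunit and 31 to the small subunit. The genes lie on 19 chromosomes, with 73 on autosomes and 4 (Rpl10, Rpl36a, Rpl39 and Rps4x) on chromosome X. The pattern leaves out 24 other Rpl or Rps symbols, among them Rps3a1, the ribosomal S6 kinases and a few processed copies, and it also misses Fau, which encodes a ribosomal protein fused to a ubiquitin-like protein.

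Ribosomal proteins are needed in near equal numbers, and every cell that grows or divides makes large amounts of them. In mammals their mRNAs start with a pyrimidine tract, the 5′ TOP motif, through which mTORC1 signaling sets how much of each mRNA is translated. Mutations in many of these genes cause Diamond-Blackfan anemia in people, often with skeletal anomalies, and loss of a copy of Rpl38 in mice disturbs the patterning of the axial skeleton.

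The study profiled single cells of the developing mouse knee, where the interzone, a band of Gdf5-expressing cells, marks the future joint, and asked how glucose transport bears on it. Cells came from the knee region of embryonic hind limbs after enzyme treatment, and the 3′ ends of transcripts were counted with unique molecular identifiers (UMIs). The 4 deposited libraries were all labelled with the tissue Interzone. They are the E13.5 control and the E14.5 control, both with the genotype No cre, an E14.5 library with the genotype Prx1cre;Glut1f/f;Glut3f/+ and an E14.5 library with the genotype Prx1cre;Glut1f/f;Glut3f/f, called here the library labelled Glut3f/+ and the library labelled Glut3f/f. Prx1cre acts in limb bud mesenchyme and its descendants, not in muscle fibers, endothelium or blood, so cells of these lineages in a mutant library should keep the floxed genes. The labels do not say how many embryos went into a library. With 1 library in each group no difference below was tested. Intervals (95%) of shares, levels and single ratios cover counting error only. Those of medians reflect the spread among the ribosomal protein genes, and none covers differences between embryos.

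The deposited tables held 12769, 9707, 11690 and 11602 barcodes with 100344565, 84188147, 97110697 and 91574038 UMIs, in the order E13.5 control, E14.5 control, library labelled Glut3f/+ and library labelled Glut3f/f, which is kept below wherever 4 values are given. Barcodes were kept when they had between 200 and 6000 genes and no more than 10% of their UMIs on mitochondrial genes, which left 12446, 9305, 11264 and 11305 cells, with a median of 6177, 7279, 6757 and 6379 UMIs. Doublets were not removed, as no caller was run, and the part of ambient RNA in any value was not tested. Between 25 and 40 barcodes were shared by any 2 libraries.

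UMIs of the targeted genes were not all lower in the mutant libraries. Slc2a1, which encodes Glut1, had 50.1 counts per 1000000 UMIs (CPM) in the mesenchymal cells of the E13.5 control, 67.3 in those of the E14.5 control, 362 in those of the library labelled Glut3f/+ and 437 in those of the library labelled Glut3f/f, so that it was higher in the libraries whose labels say that it was deleted. In muscle, where the Cre does not act, Slc2a1 was at 26.6, 24.8, 58.7 and 72.5 CPM, and in macrophages at 31.3, 19.6, 63.1 and 167 CPM. Slc2a3, which encodes Glut3, was near the limit of detection, at 5.23, 3.45, 4.34 and 2.48 CPM in mesenchymal cells. In chondrocytes it was at 3.44, 2.78 (exact Poisson interval 2.18 to 3.50), 2.69 and 0.998 CPM (0.640 to 1.49), lowest in the library whose label has both of its copies floxed. UMIs at a 3′ end that lies outside the deleted part of a gene do not show whether the deletion took place. The libraries also differed in sex. Xist, which is transcribed from the inactive X chromosome, was found in 64.7% of the kept cells of the E13.5 control, 0.172% of those of the E14.5 control, 92.2% of those of the library labelled Glut3f/+ and 91.2% of those of the library labelled Glut3f/f, and Y-linked genes in 18.4%, 65.9%, 0.0355% and 0.0265%. Sex and genotype cannot be told apart in any comparison of a mutant library with the E14.5 control.

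Ribosomal protein genes took a large part of all UMIs in every library. Their share was 22.0% in the E13.5 control (exact Clopper-Pearson interval 21.9% to 22.0%), 24.5% in the E14.5 control (24.5% to 24.5%), 27.4% in the library labelled Glut3f/+ (27.4% to 27.4%) and 28.7% in the library labelled Glut3f/f (28.7% to 28.7%). The order was the same for the median cell, with 22.0%, 24.7%, 27.0% and 28.4% of its UMIs. The share also varied with depth. From the fifth of cells with the lowest share to that with the highest, when cells were ranked by UMIs, the share ran from 21.7% to 22.7% in the E13.5 control, from 22.7% to 25.2% in the E14.5 control, from 26.2% to 28.0% in the library labelled Glut3f/+ and from 28.3% to 29.0% in the library labelled Glut3f/f. Of the 100 genes with the most UMIs, 62, 61, 63 and 62 were ribosomal protein genes.

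Every one of the 77 genes was found in every library, and in each library the levels ran over about an order of magnitude. Levels of different genes are compared as counted, with no correction for length, and the part of reads shared with processed copies was not tested. The median gene had 3003, 3345, 3580 and 3990.2 CPM, and 68, 70, 71 and 72 genes passed 1000 CPM. Rpl13 (ENSMUSG00000000740, chr8:123102350-123105244 of GRCm38), which encodes a protein of the large subunit, had the most UMIs over all libraries, with 6489, 6949.9, 7238 and 8179 CPM. Rps27a, whose protein is made as a fusion with ubiquitin, was second with 5691, 6378, 6846 and 7519.9 CPM. Rpl41, which encodes the shortest protein of the ribosome, came next with 5135, 6122, 7905 and 6869.7 CPM and was the most abundant of all in the library labelled Glut3f/+. At the other end stood Rps15, whose protein lies in the head of the small subunit, with 617, 644, 663 and 686 CPM. Rpl23a, a protein at the exit of the peptide tunnel, had 479, 535, 584 and 533 CPM. Rps27l, a paralog of Rps27 that p53 activates, was the least abundant with 476, 450.5, 463 and 482 CPM. The highest gene of a library stood 13.6, 15.4, 17.1 and 16.97 times above the lowest. The pool of ribosomal protein UMIs was spread widely, as the 10 most abundant genes held 22.8%, 23.6%, 23.2% and 23.6% of it, and genes of the large subunit held 55.2%, 54.4%, 54.6% and 54.5%.

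Cells were sorted into classes by marker genes. Gdf5-positive cells had at least 2 Gdf5 UMIs. In the E14.5 control they also had the highest levels of the interzone markers Osr2 (255 CPM) and Sfrp2 (1872 CPM) of all classes. The marker list of this class also held Creb5 and Tgfbi, whose levels are not given here. Chondrocytes had at least 0.5% of their UMIs on Col2a1 and UMIs of at least 2 further cartilage genes, and a prehypertrophic class was set apart from them. The fibroblast class was the least distinct, since Col1a1, Col1a2 and Col3a1 were higher in the osteogenic class. Many cells lay close to these limits. In the 4 libraries 664, 1471, 1669 and 2477 mesenchymal cells had 0.4% to 0.6% of their UMIs on Col2a1, against 554, 3326, 3347 and 3466 with at least 0.5%, and 960, 716, 857 and 642 cells had a single Gdf5 UMI, against 468, 241, 284 and 146 with exactly 2. The E13.5 control held only 180 cells of the chondrocyte class, against 2892, 2744 and 2806 in the E14.5 libraries.

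Skeletal muscle gave ribosomal protein genes the largest share among the classes plotted in each library, and erythroid cells the smallest. In muscle cells, found by Myod1, Myog and similar markers, the share was 27.3% at E13.5 and 30.2%, 30.9% and 30.9% at E14.5, from 669, 214, 322 and 81 cells. In mesenchymal cells, all cells outside the lineage gates, it was 21.7%, 24.5%, 27.4% and 28.8%. The distance between the 2 therefore shrank along the 4 libraries, with a log2 ratio of muscle to mesenchyme of 0.33, 0.30, 0.17 and 0.10. In erythroid cells the share was 6.16%, 4.95%, 11.9% and 12.0%, where hemoglobin genes held 71.4%, 78.3%, 55.7% and 58.7% of the UMIs. With hemoglobin left out of the total, the erythroid share was 21.5%, 22.8%, 26.8% and 29.1%, close to that of the mesenchymal cells of the same library.

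Within the mesenchyme the classes kept a loose order. Chondrocytes had a ribosomal protein share of 21.8%, 25.2%, 27.8% and 28.1%, and prehypertrophic cells 23.1%, 25.5%, 28.3% and 30.6%. Osteogenic cells, which express Runx2 and Sp7, had 23.1%, 27.4%, 28.1% and 28.2%, from 461, 98, 143 and 133 cells. Gdf5-positive cells lay lower with 20.9%, 21.5%, 25.2% and 25.6%, and so did tendon cells, which express Scx and Tnmd, with 20.7%, 21.4%, 23.6% and 24.2%. Fibroblasts had 20.7%, 23.6%, 24.7% and 25.5%. The 7692, 3731, 4891 and 5830 mesenchymal cells that passed no gate, the largest class, had 21.8%, 24.8%, 28.5% and 30.1%, above chondrocytes in both mutant libraries. The lowest shares of the mesenchyme were thus those of Gdf5-positive, tendon and fibroblast cells in each library, and the distance between Gdf5-positive cells and chondrocytes was largest in the E14.5 control, with log2 ratios of the share of -0.06, -0.23, -0.15 and -0.13. Median depth differed between classes too and its part in these differences was not tested beyond the depth window given in the closing section.

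**Figure D1:**
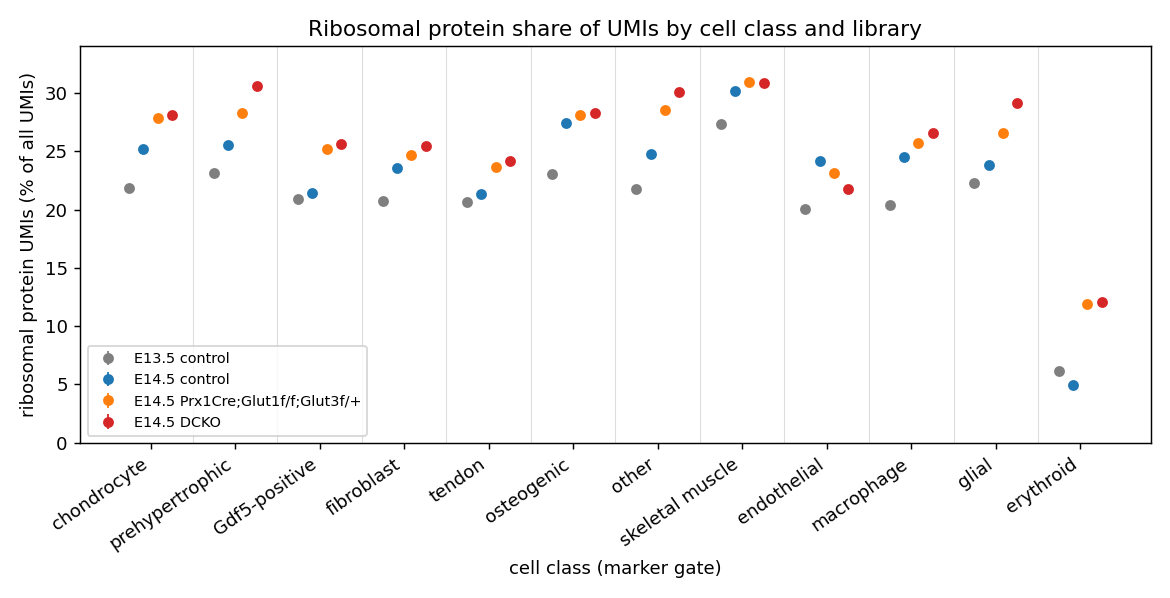
Share of UMIs (%) on the 77 ribosomal protein genes in each cell class, with 1 point per library and exact Clopper-Pearson intervals that are mostly smaller than the points. Muscle lies highest at E13.5 with 27.3%, erythroid cells lowest in every library, and the mutant libraries lie above the E14.5 control in most classes but not in endothelial cells.

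Endothelial cells followed their own course, while the macrophage share rose in the order of the libraries. In endothelial cells, gated on Cdh5, Pecam1 and similar markers, the share was 20.1% at E13.5, 24.1% in the E14.5 control, 23.2% in the library labelled Glut3f/+ and 21.8% in the library labelled Glut3f/f, from 65, 35, 66 and 76 cells. In macrophages, gated on C1qa and Csf1r among others, it was 20.4%, 24.5%, 25.7% and 26.5%, from 37, 64, 89 and 72 cells. Endothelial cells were the class of those shown in which the share was lower in both mutant libraries than in the E14.5 control.

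The makeup of the pool differed little among the larger classes of the E14.5 control. There 7 classes had at least 100 cells, and the part of the pool held by a single gene ranged across them by less than 1.5-fold for all 77 genes, with a median range of 1.13-fold. The widest range was that of Rps27l, which held 0.252% of the pool in prehypertrophic cells and 0.170% in fibroblasts, a ratio of 1.48, and between the same classes the ratio was 1.16, 1.37 and 1.35 in the E13.5 control, the library labelled Glut3f/+ and the library labelled Glut3f/f. Rpl10, an X-linked gene whose protein joins the large subunit last and lies near the peptidyl transferase center, held 0.427% in tendon cells and 0.311% in muscle, with a ratio of 1.37 there and 1.198, 1.29 and 1.27 in the other libraries. Rps2, a protein at the entry of the mRNA channel, held 2.53% in prehypertrophic and 1.92% in tendon cells, with ratios of 1.35, 1.32, 1.21 and 1.15 in the 4 libraries. Rplp1 held 1.34% in prehypertrophic and 1.02% in Gdf5-positive cells, with ratios of 1.33, 1.31, 1.35 and 1.34. These class differences kept their direction in all 4 libraries. Rpl38 held 1.04% in prehypertrophic cells and 0.814% in muscle, and Rps27 1.07% in Gdf5-positive and 0.807% in prehypertrophic cells. Rpl23a, Rps15, Rps25 and Rpl31 had the other wide ranges, of 1.31, 1.31, 1.29 and 1.28. At the other end, Rpl11 ranged by 1.05-fold. Smaller classes are not covered by this range.

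Grouped by role, the genes kept their parts of the pool within narrow limits. The P-stalk, through which the large subunit recruits the elongation factors, is made of the products of Rplp0, Rplp1 and Rplp2, and these 3 genes held 3.73%, 4.14%, 3.84% and 4.12% of the pool in mesenchymal cells and 4.06%, 4.22%, 4.09% and 4.33% in muscle. Over all cells Rplp0 had 4428, 5253, 5516 and 6263 CPM, Rplp1 2151, 2941, 2922 and 3372 CPM, and Rplp2 1717, 1978, 2151 and 2200.3 CPM. The stalk took a larger part at E14.5 than at E13.5 in both lineages. Rpl5 and Rpl11, which bind 5S RNA and, when free, the p53 ligase Mdm2, held 2.11%, 1.91%, 1.68% and 1.72% of the mesenchymal pool and 2.06%, 1.95%, 1.81% and 1.83% of that of muscle. They are far from equal in UMIs, with 730, 790, 804 and 849 CPM for Rpl5 and 3881, 3885, 3830.4 and 4092 CPM for Rpl11. The part of this pair was therefore lower in the E14.5 libraries, while the level of Rpl11 differed little. Rps6, the classical substrate of the S6 kinases, had 1093, 1221, 1221 and 1363 CPM. Rpsa, also known as a laminin receptor, had 4283, 5487, 5949.9 and 6763 CPM. The 15 genes listed for Diamond-Blackfan anemia held 21.6%, 20.9%, 21.8% and 20.5% of the mesenchymal pool. Rps19, the gene of this list most often mutated in people, had 4854, 5667, 6039 and 6809.7 CPM, Rps24 5404, 5772, 6130.3 and 6584 CPM, and Rps26, whose protein contacts the mRNA upstream of the start codon, 3832, 4490.4, 4895 and 5003 CPM.

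The family has 4 X-linked genes. Together they held 4.23%, 4.16%, 4.35% and 3.92% of the mesenchymal pool. Rps4x, which escapes inactivation in people but not in mice, had 3903, 4278, 4615 and 5022 CPM, Rpl10 1074, 955, 950.1 and 1049 CPM, Rpl36a 1383, 1352, 1608 and 1499 CPM, and Rpl39, a small protein in the wall of the peptide tunnel, 2903, 3554, 4677 and 3680.3 CPM. Rpl36a and Rpl39 were highest in the library labelled Glut3f/+. No order of the 4 libraries was shared by these genes.

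The comparison of Gdf5-positive cells with chondrocytes asks how future joint cells differ from the cartilage beside them. The median log2 ratio of the 77 genes was -0.07 in the E13.5 control (interval of the median -0.10 to -0.05), -0.23 in the E14.5 control (-0.25 to -0.21), -0.18 in the library labelled Glut3f/+ (-0.19 to -0.13) and -0.15 in the library labelled Glut3f/f (-0.18 to -0.11), where the median of all genes tested was 0.01, 0.06, 0.04 and 0.03. A gene counted as tested with at least 50 CPM in 1 class and 100 UMIs in both together, and as higher or lower when past 1.2-fold. Most of the genes were below 0, 56, 76, 76 and 76 of 77, against 48.8%, 43.5%, 44.4% and 46.2% of all genes tested, and 55 were below 0 in all 4 libraries. In 3 of the libraries few differences passed 1.2-fold. In the E13.5 control 8 of the 77 genes (10.4%) were lower past that fold, when 27.4% of all 3578 genes tested were, and in the E14.5 control it was 28 genes (36.4%), with 19.4% of 3473. In the library labelled Glut3f/+ it was 5 (6.49%), with 19.8% of 3189, and in the library labelled Glut3f/f 8 (10.4%), with 19.2% of 3156. Scaled by total UMIs, the ribosomal protein genes exceeded the background in the E14.5 control and passed the fold less often than genes at large in the others, an order that scaling changes. No ribosomal protein gene was higher past 1.2-fold in Gdf5-positive cells of any library, when 29.1%, 29.1%, 26.1% and 26.9% of all genes tested were.

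Scaling sets the size of this difference. With the TMM factors of edgeR in place of total UMIs, the median of all genes moved by -0.07, -0.23, -0.20 and -0.24, and the median of the ribosomal protein genes became -0.14, -0.47, -0.38 and -0.39, with 14, 76, 68 and 75 of them lower past 1.2-fold, against 32.6%, 40.1%, 37.9% and 43.3% of all genes tested. The family then exceeded the background in all 3 E14.5 libraries. Relative to the median of all genes tested, the ribosomal protein genes lay at -0.08, -0.30, -0.22 and -0.18, a distance that scaling does not change. With stricter gates (at least 4 Gdf5 UMIs, and at least 1% of UMIs on Col2a1) the E13.5 control kept 5 chondrocytes and its median turned to 0.56, and in the library labelled Glut3f/f the median shrank to -0.01, with 1 gene lower past the fold.

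Rplp1, Rpl38 and Rps25 were the genes lower past 1.2-fold in Gdf5-positive cells of all 4 libraries. Rplp1 (ENSMUSG00000007892, chr9:61913284-61914542), a protein of the stalk, had 1719 CPM in Gdf5-positive cells and 2289 in chondrocytes of the E13.5 control, 2193 and 3120.0 in the E14.5 control, 2263 and 3070.3 in the library labelled Glut3f/+ and 2606 and 3353 in the library labelled Glut3f/f, with log2 ratios of -0.41, -0.51, -0.44 and -0.36. Rpl38 (ENSMUSG00000057322, chr11:114668524-114672331), the gene of the axial skeleton mutant named above, had 1999 and 2527 CPM, 1871 and 2504 CPM, 2949 and 3798 CPM, and 1994 and 2598 CPM, with log2 ratios of -0.34, -0.42, -0.36 and -0.38. Rps25, a small subunit protein that internal ribosome entry sites of viruses depend on, had 768 and 1013 CPM at E13.5, 899.9 and 1155 CPM in the E14.5 control, 983 and 1206 CPM in the library labelled Glut3f/+ and 1019 and 1274 CPM in the library labelled Glut3f/f, with log2 ratios of -0.40, -0.36, -0.29 and -0.32. These genes were chosen for passing the fold in every library, so that their direction there is no separate result, and with the stricter gates and their 5 chondrocytes the E13.5 ratio of Rplp1 was 0.11. Among the genes lower in the E14.5 control was also Rpsa, with 4451 and 5813 CPM and a log2 ratio of -0.39. Rps9, a protein of the body of the small subunit, was among the least different, with log2 ratios of 0.09, -0.05, 0.06 and 0.03.

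Fibroblasts also lay below chondrocytes, by medians of -0.08, -0.10, -0.20 and -0.16, with all genes at 0.05, 0.02, 0.05 and 0.04. Here 58, 71, 75 and 76 of the 77 genes were below 0, against 45.7%, 47.6%, 45.4% and 46.4% of all genes tested. In all 4 libraries 58 of the 77 were so. Lower past 1.2-fold were 9 genes in the E13.5 control, with 28.0% of all genes tested, 1 in the E14.5 control, with 22.2%, 15 in the library labelled Glut3f/+, with 23.1%, and 8 in the library labelled Glut3f/f, with 21.7%. Scaled by total UMIs, all of these counts are below the share of genes at large. TMM scaling moved the median of all genes by -0.08, -0.17, -0.22 and -0.23 and raised the counts to 17, 44, 72 and 70, against 32.4%, 36.3%, 42.0% and 42.6% of all genes tested, so that the E14.5 libraries then lay above it. With the stricter gates the direction turned in 3 libraries, with medians of 0.60 in the E13.5 control (5 chondrocytes), 0.05 in the E14.5 control (474) and 0.09 in the library labelled Glut3f/f (189). Rpl38 was lower past the fold in fibroblasts of all 4 libraries, and in the E14.5 control it was the single gene to be so.

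Skeletal muscle lay above the mesenchyme in most genes of the family, least so in the library labelled Glut3f/f. The median log2 ratio of muscle to mesenchymal cells was 0.35, 0.32, 0.21 and 0.13, and 77, 76, 72 and 58 of the 77 genes were above 0. Of all genes tested 36.9%, 48.7%, 50.4% and 54.7% were above 0. Relative to the median of all genes tested, which no scaling changes, the family lay at 0.49, 0.35, 0.20 and 0.04. In endothelial cells the medians against mesenchyme were -0.12, -0.03, -0.24 and -0.42, and in macrophages -0.06, -0.00, -0.07 and -0.09. Relative to all genes, endothelium lay at -0.03, 0.02, -0.27 and -0.49 and macrophages at 0.16, 0.10, -0.03 and -0.06, so that for both the mutant libraries lay below 0 and the controls, but for endothelium at E13.5, above it. Rps26 (ENSMUSG00000025362, chr10:128624534-128626747) was low in endothelium and in macrophages. In endothelium it had 2519 CPM against 3809.9 in mesenchyme of the E13.5 control, 3109 against 4512 in the E14.5 control, 2958 against 4946 in the library labelled Glut3f/+ and 2582 against 5052 in the library labelled Glut3f/f, or log2 ratios of -0.60, -0.54, -0.74 and -0.97. In macrophages it had 2899, 3548, 3500.0 and 3648 CPM, with log2 ratios to mesenchyme of -0.39, -0.35, -0.50 and -0.47. In both classes the distance was larger in the mutant libraries than in the controls.

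Between E13.5 and E14.5 the comparison of the controls asks what changes as the joint forms, with sex also different between the 2 libraries. All comparisons from here on use the E14.5 control, so their values are not independent of each other. In chondrocytes the median log2 ratio of E14.5 to E13.5 was 0.19 (0.15 to 0.22), with -0.12 for all genes tested. Of the 77 genes 68 were above 0, against 35.7% of all genes. Higher past 1.2-fold were 21 genes (27.3%), with 14.6% of all 3307 genes tested, and 2 (2.60%) were lower, with 28.8% of all genes. In Gdf5-positive cells the median was 0.01 (-0.00 to 0.06), with -0.04 for all genes, and 45 genes were above 0, against 44.6% of all genes. Here 3 genes (3.90%) were higher past 1.2-fold, with 19.2% of all 3474 genes tested, and 1 (1.30%) was lower, with 21.9% of all genes. The median was thus 0.19 in chondrocytes and 0.01 in Gdf5-positive cells, and whether the classes differ was not tested. The cells behind the chondrocyte value number 180 at E13.5, and TMM scaling moved the median of all genes by 0.14 and the count of higher genes from 21 to 53, with 24.3% of all genes tested. With the stricter gates the E13.5 control kept 5 chondrocytes and the count was 67, with 27.3%. In the other classes the median was 0.13 in muscle, 0.16 in fibroblasts, 0.02 in tendon cells, 0.23 in osteogenic cells, 0.24 in endothelial cells and 0.25 in macrophages. Tendon and Gdf5-positive cells were the classes with a median near 0.

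Rps2, Rps18 and Rplp1 were the genes higher past 1.2-fold with age in both chondrocytes and Gdf5-positive cells. Rps2 (ENSMUSG00000044533, chr17:24718116-24721929) rose from 3229 to 5213 CPM in chondrocytes (log2 ratio 0.69) and from 2637 to 4211 CPM in Gdf5-positive cells (0.68). It had 4014 and 6812 CPM in muscle and 3133 and 5576 CPM in macrophages, and over 8 classes its ratio ran from 0.65 to 0.89. In all cells together Rps2 had 2960.4, 5039.8, 5314 and 5971 CPM, so that the E13.5 control stood apart from the 3 libraries of E14.5. Rps18, in the head of the small subunit, rose from 3444 to 4699 CPM in chondrocytes (0.45) and from 2960.2 to 3657 CPM in Gdf5-positive cells (0.30), with a range of 0.27 to 0.64 over the 8 classes. Rplp1 rose from 2289 to 3120.0 CPM in chondrocytes (0.45) and from 1719 to 2193 CPM in Gdf5-positive cells (0.35), with a range of 0.28 to 0.78. The higher level of each of these genes was therefore found in classes of different lineage. In chondrocytes Rpsa also rose, from 4544 to 5813 CPM (0.35), and Rpl29 from 2130.2 to 2706 CPM (0.34).

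A single gene went the other way in both classes. Rpl35 (ENSMUSG00000062997, chr2:39001580-39005624), a protein at the exit of the peptide tunnel, fell from 2110 to 1476 CPM in chondrocytes (-0.52) and from 1810 to 1179 CPM in Gdf5-positive cells (-0.62), and its ratio ran from -0.62 to -0.36 over the 8 classes. In all cells it had 1918, 1372, 1820 and 1347 CPM, and was thus high in the E13.5 control and in the library labelled Glut3f/+ and low in the other pair. Rps27l fell in chondrocytes from 575 to 450.7 CPM (-0.35). It was higher at E14.5 in macrophages, with 500 and 698 CPM (0.48), and in endothelial cells, with 421 and 534 CPM (0.35). With the stricter gates, where 5 chondrocytes were left at E13.5, the chondrocyte ratio was 0.38 for Rpl35 and 0.02 for Rps27l. The 8 classes were chosen after the values were seen.

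**Figure D2:**
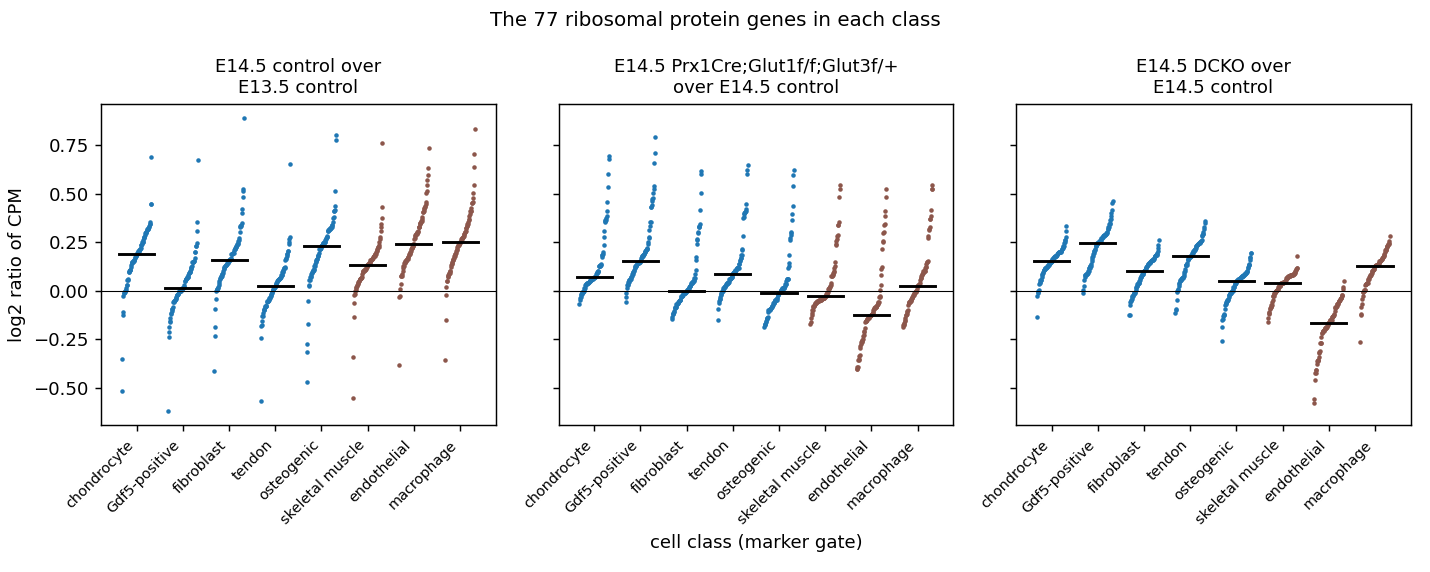
Log2 ratio of each of the 77 ribosomal protein genes (points) in 8 cell classes for the age comparison and for each mutant library over the E14.5 control, with the median as a black bar. Mesenchymal classes are in blue and other lineages in brown; in the library labelled Glut3f/+ a group of genes lies well above the rest in every class, up to 0.79 in Gdf5-positive cells.

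The library labelled Glut3f/+ was compared with the E14.5 control to ask how the genotype bears on the joint, with the limits on genotype and sex given above. In chondrocytes the median log2 ratio was 0.07 (0.05 to 0.10), with -0.08 for all genes tested. Of the 77 genes 65 were above 0, against 28.7% of all genes. Higher past 1.2-fold were 14 genes (18.2%), with 3.31% of all 3025 genes tested, and none was lower, with 12.2% of all genes. In Gdf5-positive cells the median was 0.15 (0.14 to 0.19), with -0.10 for all genes, and 74 genes were above 0, against 28.4% of all genes. Of the 77 genes 18 (23.4%) were higher past 1.2-fold, with 4.00% of all 3276 genes tested. TMM scaling moved the median of all genes in Gdf5-positive cells by 0.12 and the count to 45, with 10.7% of all genes tested. In both classes the ribosomal protein genes passed the fold more often than genes at large. In muscle, where the Cre is not active, the median was -0.03 (-0.04 to 0.01), near the -0.03 of all genes (0.018 for the family with TMM scaling), and yet 9 genes (11.7%) were higher past 1.2-fold, with 6.14% of all 2738 genes tested. In endothelial cells the median was -0.12 (-0.14 to -0.09), with -0.04 for all genes, and 14 genes (18.2%) were lower past the fold, with 22.0% of all 1348 genes tested, beside 8 (10.4%) that were higher, with 18.9%. With cells of 5000 to 15000 UMIs only, the endothelial median was -0.05, level with the -0.05 of all genes. The medians did not divide by lineage over all classes, as fibroblasts had -0.00 and osteogenic cells -0.01, near muscle, and macrophages 0.02.

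Higher past 1.2-fold in all 4 of these classes were Rps28, Rps29, Rpl38, Rps27, Rpl37, Rps21, Rpl6 and Rpl41. Rps28 (ENSMUSG00000067288, chr17:33819027-33824562), a small protein at the exit of the mRNA channel, went from 3751 to 6062 CPM in chondrocytes (log2 ratio 0.69), from 3061 to 5306 CPM in Gdf5-positive cells (0.79), from 4293 to 6002 CPM in muscle (0.48) and from 3008 to 4330 CPM in endothelial cells (0.52). Rps29 (ENSMUSG00000034892, chr12:69157722-69159186), a zinc-binding protein of the small subunit, went from 3771 to 6038 CPM (0.68), from 3550.1 to 5799 CPM (0.71), from 4157 to 6069 CPM (0.55) and from 3964 to 5534 CPM (0.48) in the same classes. Rpl38 went from 2504 to 3798 CPM in chondrocytes (0.60), from 1871 to 2949 CPM in Gdf5-positive cells (0.66), from 2459.9 to 3531 CPM in muscle (0.52) and had a ratio of 0.35 in endothelial cells. Over 8 classes, muscle and endothelium included, the lowest ratio of these genes was 0.48 for Rps28, 0.48 for Rps29 and 0.35 for Rpl38. Rps27, a zinc-binding protein of the small subunit, had ratios of 0.34 to 0.54 over the 8 classes, Rpl37 0.28 to 0.52, Rps21 0.27 to 0.46, Rpl6 0.27 to 0.48 and Rpl41 0.26 to 0.43. In all cells the 4 libraries had 3358, 3566, 5819 and 4046 CPM of Rps28, 3598, 3751, 6012 and 3863 CPM of Rps29, 2142, 2263, 3492 and 2501 CPM of Rpl38, and 2347, 2459, 3560.3 and 2788 CPM of Rps27. The library labelled Glut3f/+ stood above the other 3 in each of them, and the library labelled Glut3f/f lay nearer to the controls. The lowest ratio in chondrocytes was that of Rpl17, with 2279 CPM in the E14.5 control and 2169.8 in the library labelled Glut3f/+ (-0.07), and in muscle that of Rpl10, with 938 and 832 CPM (-0.17).

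What most of these genes share is a short coding sequence. This was noticed after the values were seen, and coding length was taken after transcript length had been tried. The 77 genes have coding sequences of 75 to 1257 nucleotides with a median of 453, against 1143 for other genes, and 10 of them have at most 300 nucleotides, from Rpl41 (75), Rpl39 (153), Rps29 (168), Rps28 (207) and Rpl38 (210) to Rps21 (249), Rps27 (252), Rps27l (252), Rpl37a (276) and Rpl37 (291). In chondrocytes the median ratio of the library labelled Glut3f/+ to the E14.5 control was 0.43 for these 10, 0.09 for the 27 genes of over 300 to 450 nucleotides, 0.05 for the 19 of over 450 to 600 and 0.04 for the 21 longer ones. The median thus decreased with length, and most between the shortest group and the next. The same groups had medians of 0.51, 0.18, 0.14 and 0.13 in Gdf5-positive cells, 0.28, -0.03, -0.06 and -0.04 in muscle and 0.32, -0.12, -0.15 and -0.13 in endothelial cells. Across the 77 genes, which are not independent replicates, Spearman's rho of the ratio with coding length was -0.601 in chondrocytes, -0.425 in Gdf5-positive cells, -0.454 in muscle and -0.287 in endothelial cells. Short genes outside the family did not show it to this degree, as 145 others of at most 300 nucleotides had a median of -0.01 in chondrocytes, and rho over 2908 other genes was -0.092. In muscle their median was 0.09 and rho over other genes -0.300. Without the 10 shortest genes rho across the family was -0.423, -0.235, -0.197 and -0.006 in the 4 classes, and of the other 67 genes 5 were higher past 1.2-fold in chondrocytes, 9 in Gdf5-positive cells and 2 in muscle, with 3.31%, 4.00% and 6.14% of all genes tested. In muscle the family without these 10 thus passed the fold less often than genes at large.

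There were exceptions on both sides of that limit. Rpl6, with 888 nucleotides, went from 3702 to 4679 CPM in muscle (0.34) and had 3059, 3171, 4168 and 3739 CPM in all cells. Rps27l, one of the shortest, had 410 CPM in Gdf5-positive cells of the E14.5 control and 401 in those of the library labelled Glut3f/+ (-0.03). The genes left out by the pattern were not all high in that library either. Fau had 3811, 4103, 4914 and 5253 CPM and Rps3a1 4020.2, 4331, 4736 and 5183 CPM in all cells, highest in the library labelled Glut3f/f.

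**Figure D3:**
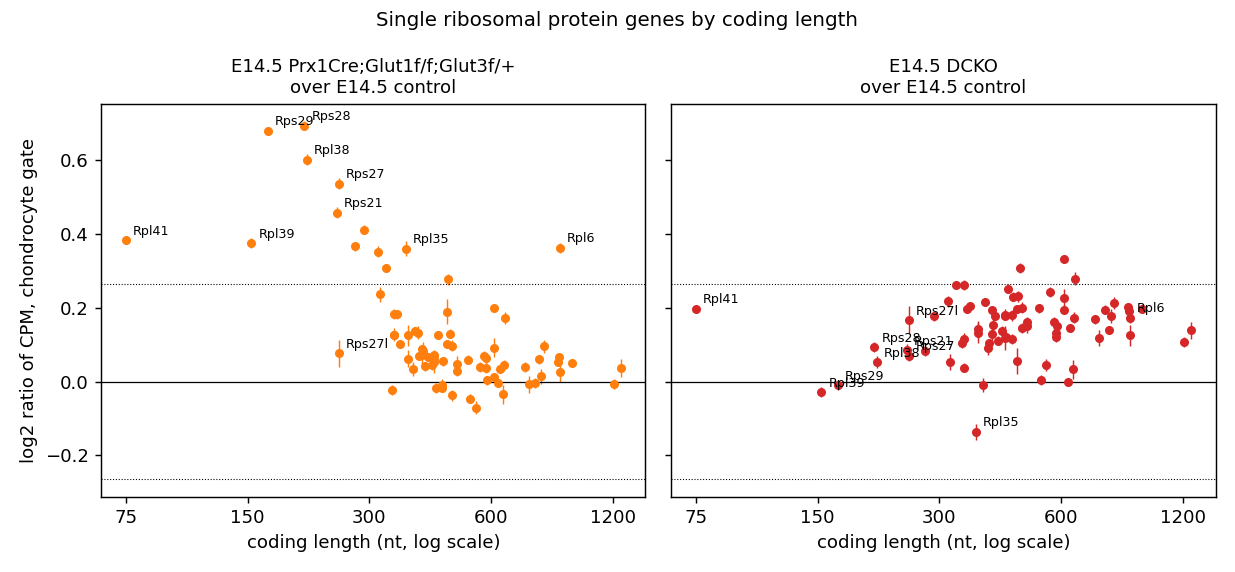
Log2 ratio of each ribosomal protein gene in chondrocytes against its coding length in nucleotides, for each mutant library over the E14.5 control, with dotted lines at 1.2-fold. In the library labelled Glut3f/+ the genes of at most 300 nucleotides have a median of 0.43, and in the library labelled Glut3f/f of 0.08.

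The library labelled Glut3f/f had the largest ribosomal protein share, and most of its ribosomal protein genes lay a little above the E14.5 control. In chondrocytes the median log2 ratio to the E14.5 control was 0.15 (0.13 to 0.18), with -0.07 for all genes tested, and 72 of the 77 genes were above 0, against 37.3% of all genes. No more than 3 genes (3.90%), Rpl14 among them, were higher past 1.2-fold, with 6.31% of all 3043 genes tested. In Gdf5-positive cells the median was 0.25 (0.21 to 0.27), with -0.08 for all genes, and 76 genes were above 0, against 36.8% of all genes. Of the 77 genes 31 (40.3%) were higher past 1.2-fold, with 10.1% of all 3346 genes tested. TMM scaling moved the median of all genes in chondrocytes by 0.12 and the count there to 41, with 15.2% of all genes tested, and in Gdf5-positive cells the count to 52, with 16.9%. With the stricter gates no gene passed the fold in chondrocytes, whose median was then 0.05. Without a chosen gate, over all mesenchymal cells, an alternative chosen after the data were seen, the median was 0.22 and 24 genes (31.2%) passed, with 5.65% of all genes tested.

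Rpl14, a protein of the large subunit, rose from 1978 to 2399 CPM in chondrocytes (log2 ratio 0.28) and had a ratio of 0.39 in Gdf5-positive cells. Rpsa was the gene with the largest rise in Gdf5-positive cells, from 4451 to 6134 CPM (0.46). Across the 4 libraries, Rpl14 had 1875, 1953, 2202 and 2447 CPM in all cells and Rpsa the values given above. Both were highest in the library labelled Glut3f/f. At the low end Rps29 had 3771 CPM in chondrocytes of the E14.5 control and 3746 in those of the library labelled Glut3f/f (-0.01), Rpl39 a ratio of -0.03 and Rpl35 1476 and 1343 CPM (-0.14). By coding length the medians in chondrocytes were 0.08, 0.14, 0.16 and 0.17 from the shortest group to the longest, with a rho of 0.251 across the 77 genes and of 0.107 without the 10 shortest. In chondrocytes rho over 2927 other genes was -0.205.

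Lineages in which the Cre does not act had no common value in this library. The medians were -0.17 in endothelial cells, 0.12 in macrophages and 0.04 in muscle, close to the 0.05 of osteogenic cells of the mesenchyme. The log2 ratio of the summed share was 0.29 in glial cells (40 and 30 cells) and 1.28 in erythroid cells (40 and 90 cells), or 0.35 there without hemoglobin in the total, all above the 0.23 of mesenchymal cells. In muscle the median was 0.04 (0.02 to 0.06), with 0.00 for all genes tested, and 55 genes were above 0, against 50.6% of all genes. Higher past 1.2-fold were 0 of the 77, with 10.9% of all 2803 genes tested. With cells of 5000 to 15000 UMIs only, the muscle median turned to -0.02. Rpl35 had the lowest muscle ratio, with 1667 and 1489 CPM (-0.16). In endothelial cells the median was -0.17 (-0.19 to -0.14), with 0.01 for all genes, and 74 genes were below 0, against 48.5% of all genes. Lower past 1.2-fold were 19 (24.7%), with 20.2% of all 1447 genes tested. With cells of 5000 to 15000 UMIs only, the median was -0.09, with -0.06 for all genes, and 10 genes were lower past the fold, with 20.9% of all genes tested. Rps15 fell from 765 to 519.6 CPM (-0.56) and Rps6 from 1404 to 1019.8 CPM (-0.46). In endothelial cells of the library labelled Glut3f/+ Rps6 had the lowest ratio, from 1404 to 1062 CPM (-0.40). Both endothelial comparisons rest on the same 35 cells of the E14.5 control and are not independent of each other.

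Promoter sequences from RefSeq (GRCm38.p6) were matched for 57 of the 77 genes, too few for a check of shares, so the counts are given as a description. A pyrimidine run at the start of transcription is what defines a 5′ TOP mRNA. The letters CTTTCC were searched on the strand that reads like the mRNA, from 20 bases before to 25 after the start. They were found in 2.61% of 27025 genes and in 10 of the 57 ribosomal protein genes. These 10 are Rpl13a, Rpl15, Rpl18, Rpl28, Rpl35, Rpl35a, Rpl38, Rpl4, Rps10 and Rps27. This run was chosen after its relative CTTTTCC had been searched, as had the shorter TTTCC, the longer TCTTTCC and the plain CTTCC. The letters CCGGAAG, searched on both strands over all 300 bases, were found in 9.93% of genes and in 24 of the 57. Stretches of 30 bases around the start are shown for Rpl35a and for genes whose levels were described above, with CTTTCC in capitals. The latter are Rpl38 and Rps27 (high in the library labelled Glut3f/+) and Rpl35 (low in the E14.5 control and the library labelled Glut3f/f). The stretches come from chr11:114668565-114668594 (plus strand) for Rpl38, chr3:90213634-90213663 (minus strand) for Rps27, chr2:39005117-39005146 (minus strand) for Rpl35 and chr16:33056467-33056496 (plus strand) for Rpl35a. In Rpl38 the run begins at the start listed with the promoter sequences. For Rpl38 and Rpl35 that start lies inside the gene bounds given above, downstream of the first base there, so the annotations place it differently.
Rpl38: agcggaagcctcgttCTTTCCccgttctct
Rps27: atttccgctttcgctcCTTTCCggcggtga
Rpl35: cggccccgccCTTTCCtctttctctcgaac
Rpl35a: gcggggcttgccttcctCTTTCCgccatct
Such a match describes the letters alone.

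Other genes of the translation machinery did not all follow the ribosomal protein genes. A list of 17 further TOP mRNAs, such as those of elongation factors, took 2.33%, 2.44%, 2.52% and 2.76% of UMIs, in the same order of libraries as the ribosomal protein genes. Eef1a1, the elongation factor that brings tRNA to the ribosome, had 5581, 5670.3, 5914 and 6161 CPM, Tpt1 3234, 3576, 3460.1 and 3673 CPM, and Npm1, a nucleolar chaperone, 3006, 3035, 3170.0 and 3841 CPM. The median of this list lay between that of the ribosomal protein genes and that of all genes in Gdf5-positive cells against chondrocytes, with -0.04, -0.12, -0.09 and -0.07, and in the chondrocyte comparisons of age (0.10), of the library labelled Glut3f/+ (0.03) and of the library labelled Glut3f/f (0.13). A list of 30 genes of ribosome biogenesis took 0.348%, 0.378%, 0.374% and 0.385% of UMIs, with Ncl at 876, 946, 985 and 978 CPM, Polr1d at 321, 315, 316 and 331 CPM and Nop10 at 303, 305, 319 and 323 CPM. In Gdf5-positive cells it lay further below chondrocytes than the ribosomal protein genes, with medians of -0.53, -0.33, -0.26 and -0.33, and 16 of 21, 10 of 20, 8 of 19 and 12 of 19 genes tested were lower past 1.2-fold, with 27.4%, 19.4%, 19.8% and 19.2% of all genes. With age the biogenesis genes had a median of -0.20 in chondrocytes, and 7 of 22 were lower past 1.2-fold and 3 higher, close to the 28.8% lower and 14.6% higher of all genes tested.

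The 78 mitochondrial ribosomal protein genes took 0.735%, 0.636%, 0.622% and 0.622% of UMIs with the highest share in the E13.5 control. Their 3 most abundant genes were Mrpl52 with 227, 209, 250.3 and 217 CPM, Mrpl20 with 245, 222, 204 and 222 CPM and Mrpl30 with 177, 177, 182 and 207 CPM. From E13.5 to E14.5 the median was -0.24 in chondrocytes, with 22 of 56 genes tested lower past 1.2-fold, against 28.8% of all genes, and -0.16 in Gdf5-positive cells, with 18 of 58, against 21.9%. Between Gdf5-positive cells and chondrocytes their medians were -0.01, 0.03, 0.05 and 0.08, near the 0.01, 0.06, 0.04 and 0.03 of all genes tested, while the cytosolic ribosomal protein genes lay below both.

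Paralogs outside the pattern ranged from levels of single genes of the family to almost none. Rpl22l1, the paralog of Rpl22, had 1608, 1829, 2112 and 2368 CPM, more than the 1573, 1735, 1811 and 1844 CPM of Rpl22, and Rpl36al, the autosomal copy of Rpl36a, 838, 935, 935 and 1107 CPM, both highest in the library labelled Glut3f/f. Rpl7l1 had 98.9, 103, 86.6 and 87.5 CPM. Rps27rt had 31.3, 73.2, 86.1 and 75.6 CPM and Rpl39l 6.85, 23.2, 16.9 and 21.02 CPM, both lower in the E13.5 control than in the 3 libraries of E14.5. Rpl3l, a gene of striated muscle, had 1, 2, 3 and 8 UMIs in all kept cells, and Rpl10l, a retrogene of the testis, 1, 0, 0 and 1, so neither was detectable as expressed at this depth.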

How the data were processed

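Single-cell 3′ RNA libraries (10x Genomics v3.1 chemistry) of 4 samples were used. The deposited matrices hold UMI counts per gene and cell barcode, which the authors made with Cell Ranger 6.1.2 on mm10 (the submitters also name Seurat 3). Barcodes with 200 to 6000 genes and no more than 10% of UMIs from mitochondrial genes were kept and gated by marker genes, at least 3 markers for muscle, endothelial, macrophage, glial, epidermal and mural cells and at least 20% hemoglobin UMIs for erythroid cells. Counts were summed by library and class. Shares have exact Clopper-Pearson and CPM exact Poisson intervals. Log2 ratios use a prior count of 0.5 and exact conditional intervals, and medians have order-statistic intervals. No test was run, as each group has 1 library, and the 1.2-fold limit takes its place. Python 3.11.15, numpy 2.4.6, scipy 1.17.1, pandas 2.3.3, matplotlib 3.10.9, R 4.3.3 and edgeR 4.0.16 were used. Coordinates and coding lengths are from GENCODE M21 (32158 gene IDs matched, 99.6%). The code was checked on simulated data.

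Members and lists were chosen with earlier results of these data known. Named are the genes of fixed roles, the 3 most and 3 least abundant, the 5 highest and 5 lowest ratios of each comparison, the 10 widest ranges of pool share, the paralogs, the 3 most abundant genes of the other lists, and Slc2a1 and Slc2a3; genes named because they passed 1.2-fold in several classes or libraries were chosen after their values were seen. Alternatives covered the cell filter, a depth window, stricter gates, the denominator, a mean over cells, TMM factors, the filter on low counts and the member list, and, chosen after seeing the data, a looser Col2a1 gate (at least 0.2%), all mesenchymal cells, and members with over 300 coding nucleotides.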

Additional observations from a re-analysis of the deposited data

Results flagged for a closer look

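The ribosomal protein share went opposite ways in endothelial cells and chondrocytes when the mutant libraries were compared with the E14.5 control. In the library labelled Glut3f/f the log2 ratio of the summed share was -0.15 in endothelial cells (interval -0.16 to -0.13), from 76 and 35 cells, and 0.16 in chondrocytes. In the library labelled Glut3f/+ it was -0.059 in endothelial cells (-0.072 to -0.045), from 66 and 35 cells, and 0.14 in chondrocytes. Both rest on the same 35 endothelial cells of the E14.5 control. With cells of 5000 to 15000 UMIs only, the endothelial median of the single genes was -0.085 in the library labelled Glut3f/f and -0.046 in the library labelled Glut3f/+, near the -0.060 and -0.048 of all genes tested. From E13.5 to E14.5 the share in erythroid cells had a log2 ratio of -0.32 (-0.33 to -0.30), against 0.21 in chondrocytes, while hemoglobin held 71.4% and 78.3% of the erythroid UMIs, and without hemoglobin in the total the erythroid ratio was 0.085. The differences between the classes were not tested.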

How the results depend on the processing

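No paired analysis was possible because each group has 1 library, and no result has a test. Over 94 results and 688 alternative values, 8 medians and 6 single-gene ratios changed sign. Of the medians, 5 did so with the stricter gates and 1 each with the depth window, TMM factors and the mean over cells (age in Gdf5-positive cells, -0.0036), and in 3 of the 8 the interval of the median as reported includes 0. All 6 single-gene ratios did so with the stricter gates, which left 5 chondrocytes at E13.5 and cannot be applied to muscle or endothelium. The 81 muscle cells of the library labelled Glut3f/f and the 35 endothelial cells of the E14.5 control limit the depth. Apart from the smaller numbers of cells given here, the cause was not tested.

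With the stricter gates the Gdf5-positive over chondrocyte median was 0.56, -0.15, -0.12 and -0.012 in the order of the libraries above, and the fibroblast median 0.60, 0.045, -0.034 and 0.088, with 474 and 189 chondrocytes in the E14.5 control and the library labelled Glut3f/f. The age median was 0.75 in chondrocytes and -0.010 in Gdf5-positive cells, and that of the library labelled Glut3f/f in chondrocytes 0.048. At E13.5 the Gdf5-positive over chondrocyte ratio became 0.073 for Rps27l and 0.11 for Rplp1, the fibroblast ratio 0.14 for Rps27l and 0.98 for Rps25, and the age ratio in chondrocytes 0.38 for Rpl35 and 0.025 for Rps27l.

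With 5000 to 15000 UMIs per cell the share in all cells was 21.9%, 24.7%, 27.3% and 28.6%, the Gdf5-positive over chondrocyte median -0.27 in the E14.5 control and -0.20 in the library labelled Glut3f/+, and the age median in chondrocytes 0.22. The library labelled Glut3f/+ had 0.052 in chondrocytes, -0.042 in muscle and -0.046 in endothelium, and the library labelled Glut3f/f -0.022 in muscle, where the direction turned, and -0.085 in endothelium. With 1000 to 6000 genes and at most 5% mitochondrial UMIs the share was 22.1%, 24.7% and 27.5% in the first 3 libraries, and the endothelial median -0.085 in the library labelled Glut3f/+ and -0.11 in the library labelled Glut3f/f. In the former 47.8% of the endothelial genes past 1.2-fold were then higher, against 36.4% with all kept cells and 6.67% without the 10 shortest genes.

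As a mean over cells the share was 22.3%, 24.4%, 27.2% and 28.8%, the E13.5 medians against chondrocytes -0.026 (Gdf5-positive) and -0.0375 (fibroblasts), and the muscle median of the library labelled Glut3f/f 0.019. Without mitochondrial, hemoglobin and collagen genes in the total the share was 22.9%, 25.7%, 28.6% and 29.8%, and no median moved beyond its interval.

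With TMM factors the medians against chondrocytes were -0.14, -0.47, -0.38 and -0.39 for Gdf5-positive cells and -0.16, -0.27, -0.42 and -0.39 for fibroblasts, the age median in chondrocytes 0.33, those of the library labelled Glut3f/+ 0.14 in chondrocytes, 0.27 in Gdf5-positive cells and 0.018 in muscle, and those of the library labelled Glut3f/f 0.27 in chondrocytes and 0.33 in Gdf5-positive cells. The muscle value of the library labelled Glut3f/+ thus changed sign, though its interval with total UMIs includes 0.

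Chosen after seeing the data, Col2a1 of at least 0.2% gave Gdf5-positive over chondrocyte medians of -0.20 in both mutant libraries, fibroblast medians of -0.15, -0.30 and -0.27 in the E14.5 libraries, and chondrocyte medians of 0.12 and 0.18 in the mutant libraries over the E14.5 control. All mesenchymal cells gave 0.16 for age and 0.093 for the library labelled Glut3f/+ in place of Gdf5-positive cells, and 0.22 for the library labelled Glut3f/f in place of chondrocytes. No median moved beyond its interval with the filter on low counts removed, the list without near-identical copies, or genes of over 300 coding nucleotides.

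Counts past 1.2-fold that changed by over 1.5 times, beside those given with the results above, included these. Gdf5-positive cells against chondrocytes went from 8, 28, 5 and 8 to 3, 15, 6 and 1 with stricter gates, while the share of all genes tested went from 27.4%, 19.4%, 19.8% and 19.2% to 57.2%, 24.7%, 25.4% and 30.8%. With Col2a1 at 0.2% they went from 8 to 2 at E13.5 (17.4% of all genes), from 5 to 13 in the library labelled Glut3f/+ (16.96%) and from 8 to 13 in the library labelled Glut3f/f (14.4%). The library labelled Glut3f/+ had 16 in the depth window (21.1%) and 8 as a mean over cells, for which no share of all genes was computed. Fibroblasts went from 9, 1, 15 and 8 to 2, 0, 0 and 0 with stricter gates, while all genes went from 28.0%, 22.2%, 23.1% and 21.7% to 56.9%, 24.9%, 24.9% and 32.1%, and to 2, 9, 49 and 42 with Col2a1 at 0.2% (21.6%, 24.4%, 23.9% and 22.98%), and from 1 to 2 in the depth window (22.7%). Age in Gdf5-positive cells went from 3 to 16 with all mesenchymal cells (19.2% to 17.7% of all genes), and the library labelled Glut3f/f in chondrocytes from 3 to 11 with Col2a1 at 0.2% (6.31% to 5.65%).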

Other observations

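Processed copies of ribosomal protein genes that the reference lists as genes of their own did not share 1 course. Rpl10-ps3 had 13.4, 14.2, 13.6 and 14.9 CPM, and Rpl9-ps1 and Rpl36-ps4 had at most 3 UMIs in any library. Rpl9-ps6 had 18.9 CPM in the E13.5 control and 51.3, 51.8 and 60.6 CPM in the 3 libraries of E14.5, and Rpl36a-ps1 11.9, 37.1, 38.1 and 40.03 CPM. The part of read alignment in these values was not tested.

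Slc2a1 was higher in the mutant libraries in endothelial cells as well, with 79.4, 81.9, 131 and 114 CPM in the 4 libraries, although the interval of the E14.5 control (50.7 to 125) overlaps those of the library labelled Glut3f/+ (104 to 163) and the library labelled Glut3f/f (89.7 to 142).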
